A study of Danio rerio with 8 samples.

Results

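The genotype by region interaction of foxc1a mutant zebrafish was taken from all 8 of the 8 trunk RNA-seq libraries in the series. It is the mutant minus sibling difference in anterior segments minus the same difference in posterior segments, on the deposited log2(RPKM + 1) scale. RPKM is the number of reads scaled for transcript length and for the total of mapped reads. A positive interaction means that the mutant minus sibling difference was higher in the anterior piece, and a negative interaction that it was lower there.

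All embryos were 38 to 40 hours old and had been raised in the same medium without further treatment. The mutants (MUT) carried the p162 allele of foxc1a on both chromosomes. The controls (SIB) are given as p162 heterozygotes in the sample labels and as wild type in the design text. Somitic segments 1 to 6, crossed by the nerves that grow to the fin, made up the anterior piece (AS). The posterior piece (PS) ran from segment 7 to roughly segment 12 and is free of fin nerves. Heads and yolks had been cut away. Each of the groups SIB_AS, MUT_AS, SIB_PS and MUT_PS held 2 libraries. The titles number one of them 3 and leave the other without a number, and the latter is called replicate 1 here. The labels do not say whether these came from separate clutches or how many embryos were pooled, so p-values measure only the spread between these libraries.

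Foxc1a is a forkhead transcription factor made in the paraxial mesoderm, the tissue that forms somites and later trunk muscle, vertebral precursors and dermis. In zebrafish, loss of Foxc function disturbs the formation of somites, and foxc genes also act in vessels, kidney and cranial mesenchyme. The anterior segments lie at the level of the fin buds and carry a different set of hox genes, the positional code of the body axis, from the segments behind them.

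The reading of each piece was checked against marker genes. The 44 fast skeletal muscle genes in the table took 5.06% to 10.6% of all RPKM in the 4 AS libraries and 17.5% to 22.7% in the 4 PS libraries. The 40 eye and brain markers took 0.0275% to 0.0351% in the AS libraries and 0.00948% to 0.0114% in the PS libraries. How much head tissue remained in either piece was not tested. Read numbers were not used here. Relative depth was read from the steps at which ratios of low RPKM values between 2 libraries piled up. It was taken as known only up to a factor of 2, a margin that was not tested. By this reading MUT_AS replicate 3 held 1.07% as many reads as SIB_PS replicate 3, which was the deepest. The share was 88.6% for MUT_AS replicate 1, and the other 5 libraries held 9.91% to 32.6%. Transcripts listed at 0 made up 17.5% in MUT_AS replicate 3, while the range over the other 7 libraries was 4.59% to 8.01%. The typical SD between replicates was 0.363 in MUT_AS and 0.181 to 0.195 in the other groups, on the log2 scale, so the interaction carries most of its error in MUT_AS.

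foxc1a itself was read at similar levels in mutants and siblings of both regions, at 18.1 and 16.3 RPKM in SIB_AS, 19.3 and 16.3 in MUT_AS, 7.74 and 7.32 in SIB_PS and 9.02 and 7.74 in MUT_PS. Mutant and sibling libraries overlapped or touched in both regions, and the interaction was −0.09 (SE 0.23). The genotype labels are thus not checked by transcript level. Its duplicate foxc1b stood at 13.02 and 11.37 RPKM in SIB_AS and 16.1 and 14.8 in MUT_AS, and at 4.22 and 4.14 in SIB_PS and 5.43 and 5.53 in MUT_PS. Its mutant minus sibling difference was 0.32 in AS and 0.33 in PS, with an interaction of −0.01 (SE 0.22).

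No transcript passed the interaction test. Of the 10889 transcripts whose mean reached 1 RPKM, 0 (0%) had an interaction with a limma adjusted p under 0.05, while 298 (2.74%) had an unadjusted p under 0.05, 131 above 0 (1.2%) and 167 below 0 (1.53%). With libraries scaled to a common median these were 111 above 0 and 230 below 0, and again 0 passed the adjusted threshold. An unadjusted threshold of 0.05 would pass a fraction of 0.05 with no interaction anywhere, so neither set of counts is an excess. The smallest adjusted p was 0.119, shared by lyz, star and cldn11a. For the AS difference, in the same fit of all 8 libraries, 5 transcripts (0.0459%) were called, 1 higher and 4 lower, or 0 higher and 4 lower with median scaling. Of all tested, 1270 (11.7%) had an unadjusted p under 0.05 in AS. In PS 0 were called by limma in the same fit, with 291 (2.67%) at an unadjusted p under 0.05. This fit shares 1 spread over all groups. With each region fitted alone, limma called 0 in AS and 99 in PS, with 687 and 716 at an unadjusted p under 0.05. The counts of the 2 regions therefore do not rank the regions by size of effect. The interaction was estimated with a median SE of 0.270, against 0.191 for the difference in either region. Without MUT_AS replicate 1 the interaction called 199 transcripts and without MUT_AS replicate 3 it called 11. These fits let the lone MUT_AS library take the spread of the other groups, and 3 genes, lyz, star and cldn11a, were called in both.

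Differences in the 2 regions came from separate libraries and went the same way more often than the opposite way. Whether AS and PS libraries shared embryos was not tested. Differences between replicates 1 and 3 correlated with r = 0.52 for SIB_AS with SIB_PS and 0.22 for MUT_AS with MUT_PS. For SIB_AS with MUT_PS, which differ in genotype, r was 0.37, so these values do not show whether embryos were shared. The 2 regions are thus not taken as independent. Over the 10889 transcripts the AS and PS differences correlated with r = 0.334, a description across genes that are not independent replicates. Of 122 transcripts with an unadjusted p under 0.05 in both regions, 114 had the same sign and 8 had opposite signs. Mutant and sibling libraries did not overlap in either region for 1343 transcripts (12.3%) in the same direction and for 286 (2.63%) in opposite directions. Of the 1343, 1098 were higher in mutants in both regions and 245 lower. Over all transcripts, 62.1% of differences in AS and 63.8% in PS were above 0, which favours the same direction. Median scaling changed the AS counts at an unadjusted limma p under 0.05 from 856 higher and 414 lower to 439 and 760. Overlap was not counted with that scaling. Where both differences were at least 0.5 in size, 79 transcripts went the same way and 7 opposite ways. Without MUT_AS replicate 3 these counts were 81 and 7, while the counts of transcripts of any size with no overlap rose to 2102 in the same direction and 863 in opposite directions. A lone MUT_AS library meets the rule of no overlap more easily, so a rise in these counts follows from the rule and is not read as a result. With all 8 libraries the 7 were krt1-c5 and twf2b, higher in mutants in AS and lower in PS, and apoea, zgc:194131, si:ch73-142c19.1, dgat2 and msmo1, lower in AS and higher in PS. Of these only apoea and zgc:194131 had a mean above 5 RPKM. In MUT_AS replicate 3, si:ch73-142c19.1, dgat2 and msmo1 were read at 0 RPKM. In MUT_AS replicate 1 msmo1 was at 0.879 RPKM, against 1.26 and 0.905 in SIB_AS. The 7 found without MUT_AS replicate 3 were thus not all the same genes. The value of si:ch73-142c19.1 is that of its second mapped copy, with an interaction of −1.78, while its first copy had 0.12 and overlapped in both regions.

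**Figure D1:**
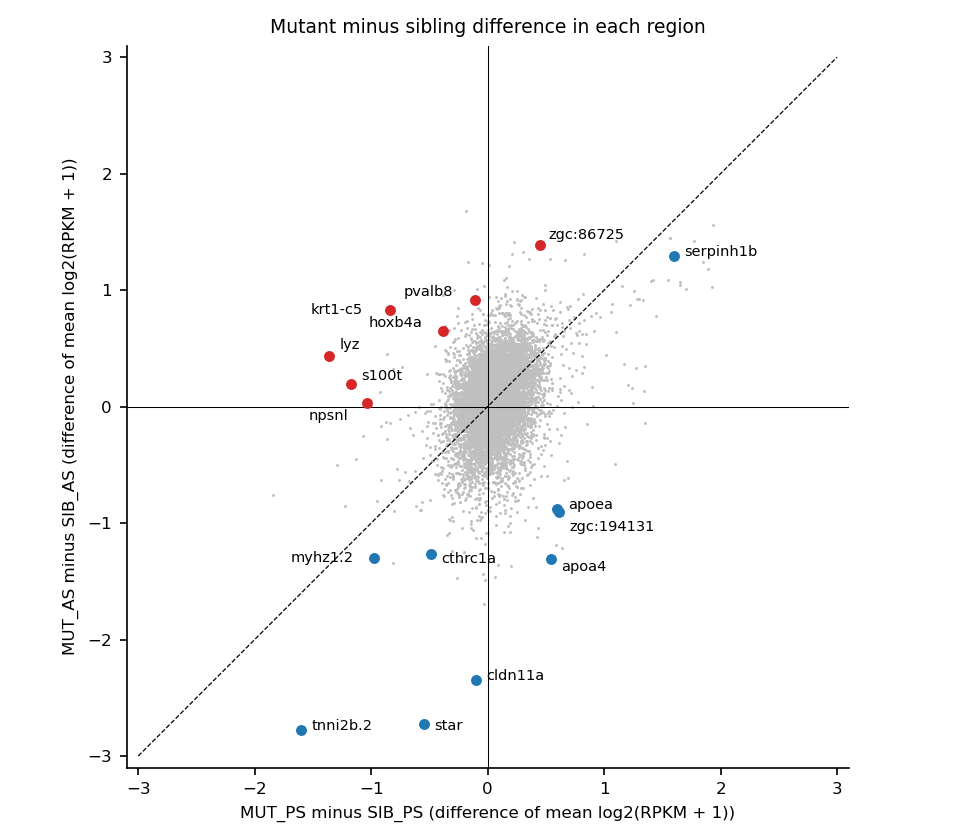
Mutant minus sibling difference in AS (vertical axis) against that in PS (horizontal axis), both as differences of mean log2(RPKM + 1), for the 10889 transcripts tested (grey). Coloured points are named genes, red with an interaction above 0 and blue below 0, and the dashed line marks equal differences in both regions: serpinh1b lies near it, lyz, s100t and npsnl lie left of it and star, cldn11a and apoa4 lie below it.

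Several of the larger differences were shared by both regions. serpinh1b, the collagen chaperone of the endoplasmic reticulum, stood at 45.9 and 39.4 RPKM in SIB_AS and 96.8 and 115 in MUT_AS, and at 52.3 and 46.0 in SIB_PS and 184 and 123 in MUT_PS. Every mutant library lay above every sibling library, with an AS difference of 1.29, a PS difference of 1.60 and an interaction of −0.31 (95% interval −0.96 to 0.34). myhz1.2, a fast myosin heavy chain gene, was lower in mutants by a log2 difference of −1.30 in AS and −0.97 in PS, with an interaction of −0.33 (−0.97 to 0.31). The water channel gene aqp1a.1 had an interaction of −0.09 (−0.56 to 0.39), the arrestin family gene arrdc3b one of 0.27 (−0.20 to 0.74) and the chaperone gene dnajb1b one of 0.15 (−0.43 to 0.73). All 3 were higher in every mutant library than in every sibling library of the same region. These intervals hold 0, and they also hold differences between regions of up to 0.5 log2 units or more.

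Among myeloid markers, lyz had the highest interaction. lyz, which encodes lysozyme, an enzyme of neutrophil and macrophage granules, was read at 85.2 and 90.3 RPKM in SIB_AS and at 138 and 103 in MUT_AS. In PS it was read at 49.5 and 57.3 RPKM in siblings and at 19.6 and 20.7 in mutants. Mutants were thus above siblings in AS and below them in PS, with no overlap in either region. The AS difference was 0.44, the PS difference −1.36 and the interaction 1.80 (SE 0.25, limma adjusted p = 0.119). It lay between 1.58 and 2.01 when any 1 library was left out. In a bulk sample, fewer cells of a type and less RNA per cell cannot be told apart.

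npsn and npsnl encode nephrosins, secreted metalloproteases of neutrophils. npsnl stood at 16.8 and 20.5 RPKM in SIB_AS, 19.5 and 18.6 in MUT_AS, 11.7 and 10.5 in SIB_PS and 5.16 and 4.69 in MUT_PS. Its AS libraries overlapped and its PS libraries did not, and the interaction was 1.06 (SE 0.23, adjusted p = 0.857). The 2 npsn transcripts had interactions of 1.05 and 1.04. npsn and npsnl are near-identical copies whose reads may have been shared, so they do not count as separate observations. ncf1, a subunit of the NADPH oxidase of phagocytes, had an interaction of 0.99. It was read at 0.946 and 1.08 RPKM in SIB_AS, 1.704 and 2.704 in MUT_AS, 0.894 in both SIB_PS libraries, and 0.617 and 0.393 in MUT_PS. Every PS value of ncf1 was under 1 RPKM, the limit used below for genes too low to compare.

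mpx, which encodes myeloperoxidase, occurs as 2 mapped copies that disagreed. The first copy had 5.93 and 6.51 RPKM in SIB_AS, 7.55 and 8.48 in MUT_AS, 3.86 and 3.88 in SIB_PS and 1.69 and 1.86 in MUT_PS, and an interaction of 1.13. The second copy had an interaction of −0.83, so no direction is given for mpx as a gene. Of the 37 myeloid markers listed, 32 were in the table and 23 passed the filter on low values. Of these 0 were called and 16 had an interaction above 0, against 53% of all transcripts tested. Their median was 0.26, or 0.13 without SIB_PS replicate 1 and 0.14 without MUT_AS replicate 3, against 0.02 over all transcripts. The interaction was −0.10 for mpeg1, a macrophage pore protein, and −0.27 for csf1ra, a growth factor receptor of macrophages and pigment cells. In sum the 32 markers took 0.0919% to 0.0980% of RPKM in SIB_AS, 0.0867% to 0.0871% in MUT_AS, 0.112% to 0.158% in SIB_PS and 0.121% to 0.151% in MUT_PS. The sum, in which the most abundant markers weigh most, was lower in mutants in AS, where lyz was higher, and overlapped between the groups in PS. The mean log2(RPKM + 1) of the same 32 markers went the other way in AS. It was 2.05 and 2.22 in SIB_AS, 2.258 and 2.257 in MUT_AS, 2.06 and 1.94 in SIB_PS and 1.89 and 1.93 in MUT_PS. By this mean mutants were higher in AS and lower in PS, so the direction of the list depends on the summary.

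s100t, a member of the S100 family of calcium-binding proteins, showed a pattern close to that of npsnl. Which cells expressed s100t was not tested. It was read at 20.03 and 19.0 RPKM in SIB_AS and 25.9 and 19.4 in MUT_AS, and at 7.59 and 8.35 in SIB_PS and 2.21 and 3.93 in MUT_PS. The AS libraries overlapped, the mutant PS libraries were both below the sibling ones, and the interaction was 1.37 (SE 0.31).

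star and cldn11a gave the most negative interactions, and both were low in PS, at 1.53 RPKM or less in every library, against a pseudocount of 1. star encodes the protein that carries cholesterol into mitochondria for steroid synthesis. Its level was 7.94 and 11.5 RPKM in SIB_AS, at 0.558 and 0.650 in MUT_AS, at 1.53 and 1.11 in SIB_PS and at 0.547 and 0.620 in MUT_PS. The mutant libraries were below the sibling libraries in both regions and stood at about the same level in both. In MUT_AS replicate 3 the 5th percentile of values above 0 was 0.579 RPKM, so its 0.650 lay near the floor. Equal levels in the mutants of both regions are thus not established. star fell in AS by 2.72 on the log2 scale (SE 0.21, limma adjusted p = 0.00141), the PS difference was −0.55 and the interaction −2.17 (SE 0.29, adjusted p = 0.119).

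In siblings star was 2.19 higher in AS than in PS, and in mutants 0.02. On the log2(RPKM + 1) scale the sibling level in PS was itself below 2.72, so a fall of the size measured in AS could not occur there, and a smaller effect in PS cannot be told apart from a lower starting level. Its sibling mean in PS was just above the limit of 1 RPKM used below for genes too low to compare. A list of the interrenal gland (the fish counterpart of the adrenal) and steroid synthesis had 17 genes in the table. Of these, 5 passed the filter, with interactions above 0 for 3 and below 0 for 2, star among the latter. The interactions of cyp17a1, a steroid hydroxylase, and hsd3b7, a hydroxysteroid dehydrogenase, were 0.15 and 0.51. The mean log2(RPKM + 1) of the 17 genes, star included, was 1.06 and 1.19 in SIB_AS and 0.845 and 0.791 in MUT_AS. In PS this mean was 0.667 and 0.576 in siblings and 0.539 and 0.613 in mutants.

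cldn11a encodes a claudin, a membrane protein of tight junctions. Levels were 5.31 and 4.46 RPKM in SIB_AS and at 0.330 and 0 in MUT_AS, and at 0.444 and 0.216 in SIB_PS and 0.109 and 0.372 in MUT_PS. It fell in AS by 2.35 (SE 0.22, limma adjusted p = 0.00371), while in PS the libraries overlapped at under 1 RPKM. The AS call was lost when the 4 AS libraries were fitted alone, when the pseudocount was 0.1 and without SIB_AS replicate 1 (adjusted p up to 0.117). Its interaction of −2.24 (SE 0.32) therefore restates the AS difference.

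**Figure D2:**
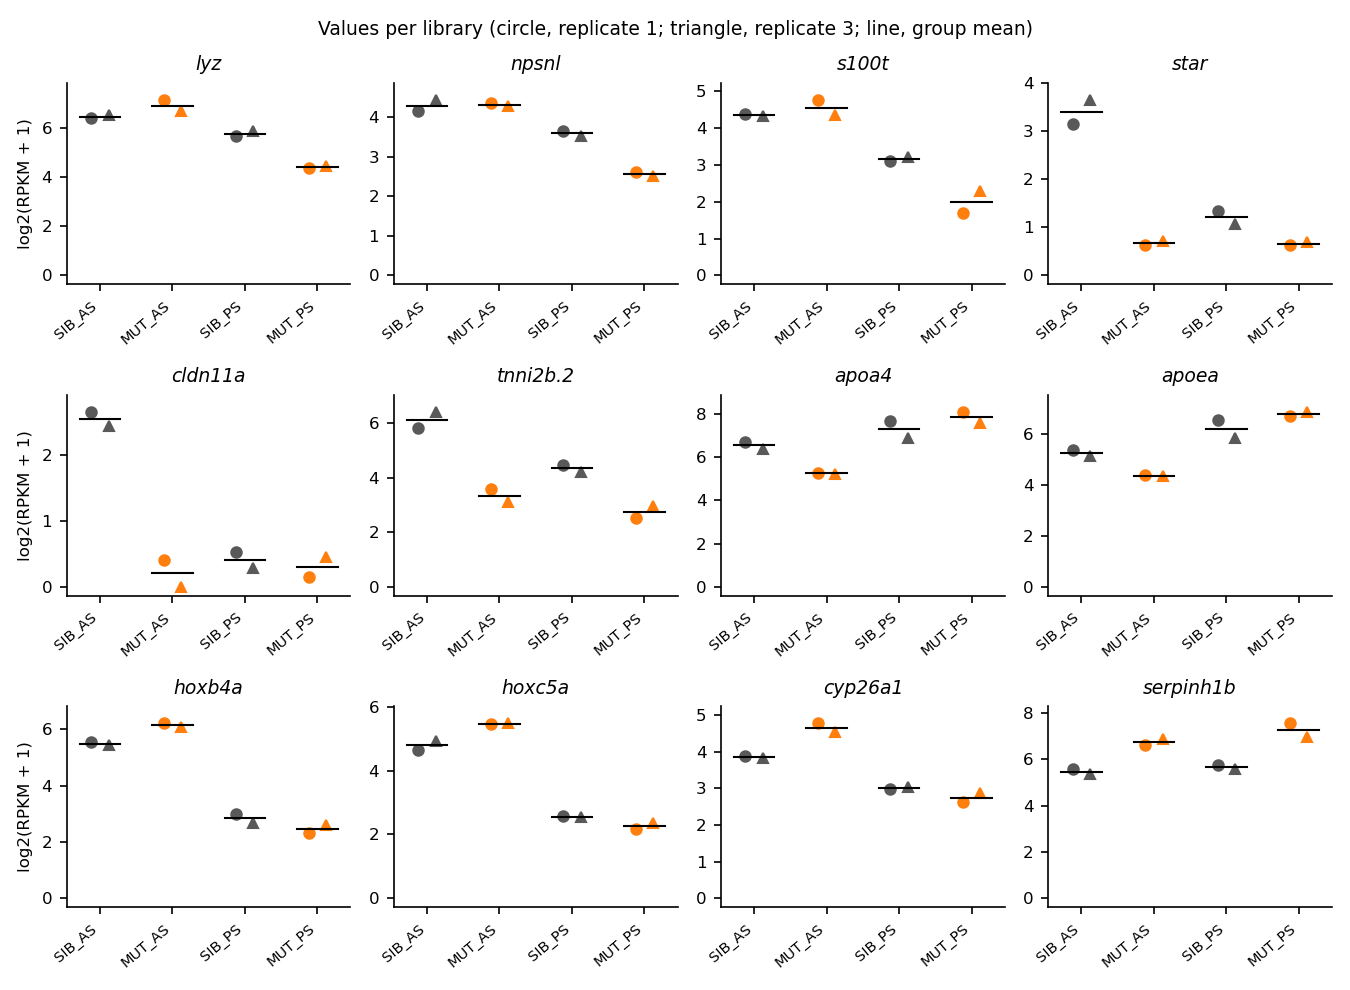
Values of 12 genes in every library as log2(RPKM + 1) (vertical axis, its scale set for each gene) in the 4 groups, with circles for replicate 1, triangles for replicate 3 and lines for group means. lyz, npsnl and s100t were lowest in MUT_PS, star and cldn11a were high only in SIB_AS among these groups, apoa4 and apoea were lowest in MUT_AS, and serpinh1b was higher in mutants of both regions.

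Few of the tested transcripts that differed in 1 region were too low in the other by the rule used here. Transcripts with a mean under 1 RPKM over the 8 libraries had been left out beforehand, and star lay just outside the rule. The counts below thus do not show how often low values matter. Of 57 transcripts with an AS difference of at least 1 in size and no overlap there, 5 had a mean under 1 RPKM in both PS groups, a level found for 307 (2.82%) of all transcripts tested. Besides cldn11a they were baiap2l1b, LOC564909, zgc:194937 and otx1a. baiap2l1b encodes a membrane-bending adapter and occurs as 2 mapped copies, of which the second met this rule. Its values were 0.598 and 0.393 RPKM in SIB_AS and 1.68 and 3.66 in MUT_AS, and at 0.349 to 1.04 in the 4 PS libraries. The AS difference was 1.25 for this copy and 0.40 for the first, so no size is given for the gene.

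LOC564909 carries the current symbol hpcal4, a neuronal calcium sensor gene, and stood at 1.21 and 1.99 RPKM in SIB_AS, 3.16 and 5.72 in MUT_AS and 0.828 to 1.14 in the 4 PS libraries. zgc:194937, now col9a1a, encodes a chain of the cartilage and notochord collagen IX. Levels of 16.1 and 12.6 RPKM were read in SIB_AS and 6.48 and 3.02 in MUT_AS, and at 1.28 and 0.373 in SIB_PS and 0.3498 and 0.601 in MUT_PS. otx1a, a transcription factor gene of the anterior brain, was read at 4.03 and 2.77 RPKM in SIB_AS and 1.81 and 0.506 in MUT_AS, and at 0.134 or less in the PS libraries. For these genes no statement on PS can be made. Residual head tissue could not be assessed from otx1a alone, and its part in the AS difference was not tested: the eye and brain markers took 0.0300% to 0.0351% of RPKM in SIB_AS and 0.0275% to 0.0299% in MUT_AS.

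The reverse case was 1 of 42 transcripts with a PS difference of at least 1. It was zgc:194314, now g0s2, whose mammalian counterpart inhibits a lipase of fat droplets. Its values were 2.77 and 1.21 RPKM in SIB_PS and 5.32 and 4.99 in MUT_PS, and at 0.853 or less in AS. Of the other 52 transcripts that differed in AS, 38 had the same sign in PS, 21 of them with no overlap there, and 3 were on the opposite side with no overlap. Of the other 41 that differed in PS, 37 had the same sign in AS, 19 with no overlap, and 1 was on the opposite side. The 57 held 27 higher and 30 lower in mutants, and the 42 held 32 higher and 10 lower. Of all transcripts, 63.8% were above 0 in PS and 62.1% in AS. Over all transcripts, 12.3% did not overlap in both regions in the same direction, and 2.63% in opposite directions. The share with no overlap in 1 region is not given, so these counts are a description only.

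Fast muscle genes had mostly negative interactions. tnni2b.2, a fast muscle troponin I gene, was read at 55.7 and 83.4 RPKM in SIB_AS and 10.9 and 7.54 in MUT_AS. In PS it was read at 21.1 and 17.6 RPKM in siblings and 4.71 and 6.85 in mutants. All mutant libraries were below all sibling libraries. tnni2b.2 fell in AS by 2.78 (SE 0.25, limma adjusted p = 0.00325), the PS difference was −1.60 and the interaction −1.18 (SE 0.35, adjusted p = 0.999). In siblings it was 1.77 higher in AS than in PS, and in mutants 0.59 higher.

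Of 48 fast muscle genes listed, 44 were in the table and 42 were tested. None was called in the interaction, where 40 were below 0 and 2 above, with a median of −0.35 and a range of −1.18 to 0.40. With median scaling the same 40 and 2 were counted. The median AS difference was −0.57 and the median PS difference −0.15. The interaction median was −0.52 when SIB_AS replicate 1 was left out and −0.19 when SIB_AS replicate 3 was, with 35 to 40 of the 42 below 0 whichever library was left out. Among proteins of the sarcomere, the interaction was −0.54 for the regulatory light chain gene mylpfb and −0.58 for tnni2b.1. It was −0.66 for ak1 and −0.55 for ckmb, which encode the adenylate and creatine kinases that regenerate ATP in muscle.

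The summed share of fast muscle genes was 8.27% and 10.6% of RPKM in SIB_AS, 5.06% and 6.47% in MUT_AS, 19.2% and 22.7% in SIB_PS and 17.5% and 17.8% in MUT_PS. Mutants were below siblings in both regions with no overlap. The 17 slow muscle genes tested had a median interaction of 0.07, with 9 above 0 and 8 below, and the median was −0.05 without SIB_PS replicate 1 and 0.12 without MUT_PS replicate 1. The 23 myogenic regulators tested had a median of 0.03 that turned to −0.00 with median scaling, and lay between −0.04 without SIB_PS replicate 1 and 0.12 without MUT_PS replicate 1.

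Apolipoprotein genes, whose products carry lipids in plasma and are made by yolk syncytial layer, liver and gut, had the most negative median of any list. apoa4 was read at 104 and 83.4 RPKM in SIB_AS and 38.1 and 36.1 in MUT_AS, and at 206 and 119 in SIB_PS and 272 and 193 in MUT_PS. The groups did not overlap in AS and overlapped in PS. The interaction was −1.85 (SE 0.37, adjusted p = 0.857). apoea was read at 40.4 and 34.1 RPKM in SIB_AS, 20.2 and 19.3 in MUT_AS, 93.3 and 57.0 in SIB_PS and 105 and 117 in MUT_PS. It did not overlap in either region, went opposite ways, and had an interaction of −1.48 (SE 0.31).

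zgc:194131, now apoa4b.2, had 39.9 and 27.6 RPKM in SIB_AS, 21.4 and 13.9 in MUT_AS, 127 and 101 in SIB_PS and 179 and 169 in MUT_PS, with an interaction of −1.52. Of 12 apolipoprotein genes in the table, 11 were tested, 0 were called, and 10 had an interaction below 0 against 1 above, with or without median scaling. Their median was −0.69, between −0.99 without SIB_PS replicate 1 and −0.39 without SIB_PS replicate 3. Their summed share was 0.491% and 0.434% of RPKM in SIB_AS, 0.341% and 0.301% in MUT_AS, 1.03% and 0.719% in SIB_PS and 1.04% and 0.904% in MUT_PS. In this sum, in which abundant genes weigh most, the groups did not overlap in AS and overlapped in PS. The mean log2(RPKM + 1) of the 12 genes did not overlap in either region, with mutants lower in AS and higher in PS. In PS this mean was 6.82 and 6.35 in siblings and 7.03 and 6.95 in mutants. Of the 11 tested, 2 were above 0 and 9 below in AS, and all 11 were above 0 in PS.

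A mixed list of liver, gut and exocrine pancreas genes, apoa4 among them, did not share a sign, and 12 of its 29 tested members lay above 0. Outside that list, serpinc1, the gene of the clotting inhibitor antithrombin, had −1.03, with 7.51 and 7.77 RPKM in SIB_AS, 3.97 and 3.40 in MUT_AS and 9.96 to 15.2 in the 4 PS libraries. g6pca.2, which is outside it too and encodes the catalytic subunit of the enzyme that releases free glucose, had −0.88 and differed in opposite directions in the 2 regions with no overlap. In the list, the other 17 of the 29 were below 0, with a median of −0.13 that turned to 0.06 without MUT_AS replicate 3 and 0.10 without SIB_PS replicate 3. How much of these tissues each piece held was not tested.

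The hox genes of anterior paralog groups tended to positive interactions. hoxb4a, whose domain includes hindbrain and anterior trunk, was read at 46.2 and 42.1 RPKM in SIB_AS and 72.9 and 66.7 in MUT_AS, and at 6.92 and 5.47 in SIB_PS and 4.02 and 5.02 in MUT_PS. Mutants were above siblings in AS and below them in PS with no overlap. The AS difference was 0.65, the PS difference −0.38 and the interaction 1.03 (SE 0.24, adjusted p = 0.867). hoxc5a had the same pattern, with 24.2 and 29.5 RPKM in SIB_AS, 43.1 and 43.4 in MUT_AS, 4.95 and 4.84 in SIB_PS and 3.55 and 4.11 in MUT_PS, and an interaction of 0.97 (SE 0.22).

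For both genes the difference between AS and PS was larger in mutants. hoxb4a was 2.65 higher in AS than PS in siblings and 3.69 in mutants, and hoxc5a 2.23 and 3.199. All 18 hox genes of paralog groups 1 to 5 in the table were tested. Of these, 17 had an interaction above 0, or 16 with median scaling, against 53% of all transcripts, and 0 were called. Their median was 0.31, which fell to 0.07 without SIB_PS replicate 1, with 10 of 18 above 0. Of the 18, 3 (hoxb4a, hoxc5a and hoxa5a) did not overlap in either region and had opposite signs, a pattern found in 2.63% of all transcripts.

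The 8 tested genes of paralog groups 6 to 8 all lay above 0, with a median of 0.16 and with 0.75 for hoxc6a. Without MUT_AS replicate 1, 5 of the 8 did so, and the median was 0.05 without SIB_PS replicate 1, 0.07 without MUT_PS replicate 3 and 0.32 without SIB_PS replicate 3. Of the genes of groups 9 to 13, which mark the posterior body, 13 of 20 in the table passed the filter. Their differences were above 0 in PS for all 13 and in AS for 10, against 63.8% and 62.1% of all transcripts, and their median interaction of 0.18 turned to −0.12 without MUT_AS replicate 3 and −0.06 without MUT_PS replicate 3. hoxb9a was read at 44.1 and 43.0 RPKM in SIB_AS and 75.1 and 77.0 in MUT_AS, and at 91.4 and 104 in SIB_PS and 119 and 102 in MUT_PS, with an interaction of 0.61. hoxa13b went the other way, with 1.97 and 2.27 RPKM in SIB_AS, 1.29 and 1.92 in MUT_AS, 0.510 and 0.442 in SIB_PS and 1.29 and 0.855 in MUT_PS, and an interaction of −0.75. These hoxa13b values are low, and those of the PS siblings lie under 1 RPKM.

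**Figure D3:**
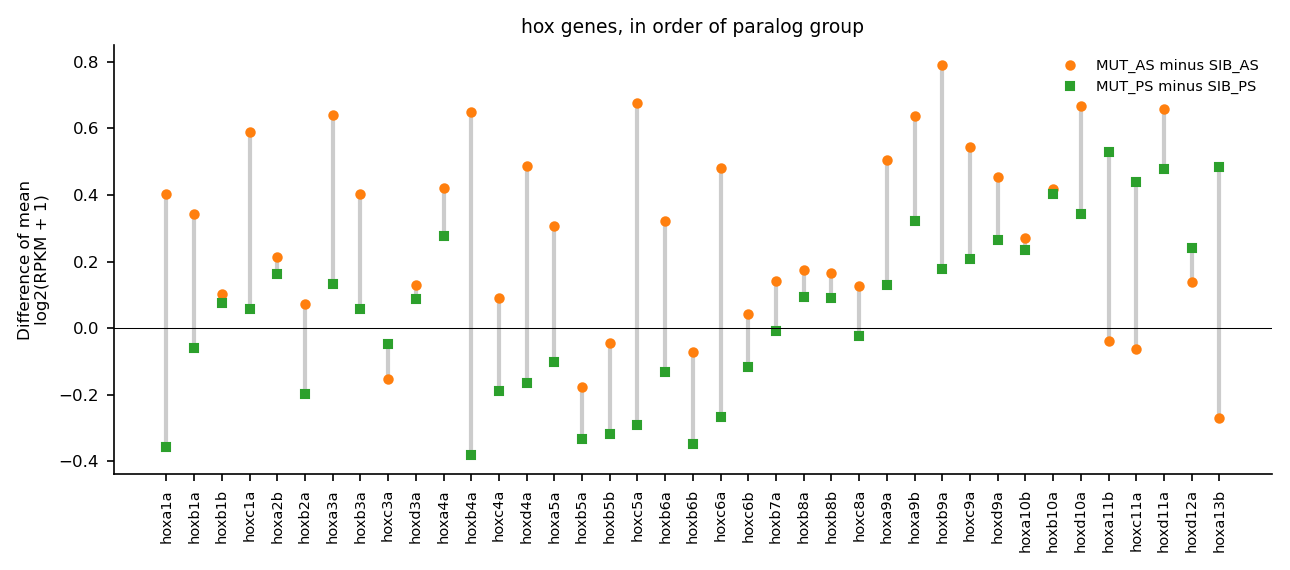
Mutant minus sibling difference of each tested hox gene, as a difference of mean log2(RPKM + 1) (vertical axis), in AS (circles) and PS (squares), in order of paralog group from 1 to 13, with a grey line joining the 2 regions. The AS value lies above the PS value for 17 of 18 genes of groups 1 to 5, and below it for 4 of 13 genes of groups 9 to 13 (hoxa11b, hoxc11a, hoxd12a and hoxa13b).

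cyp26a1 encodes the enzyme that breaks down retinoic acid, a signal that sets hox expression along the trunk. It was read at 13.9 and 13.3 RPKM in SIB_AS and 26.3 and 22.0 in MUT_AS, and at 6.97 and 7.15 in SIB_PS and 5.18 and 6.29 in MUT_PS. Mutants were above siblings in AS and below them in PS with no overlap, and the interaction was 1.04 (SE 0.23, adjusted p = 0.857). It was the only one of the 27 tested genes of the retinoic acid pathway with an unadjusted interaction p under 0.05, against 2.74% of all transcripts. The synthesis enzyme gene aldh1a2 had 0.30. The median of the pathway was 0.05, and it turned to −0.03 without SIB_PS replicate 1 and without MUT_AS replicate 1.

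The pteridine pathway makes the yellow pigment of xanthophores and a cofactor of aromatic amino acid hydroxylases, and 3 of its genes are described here because of their p or their place among the pigment markers. gch2, the gene of its first enzyme in pigment cells, was read at 254 and 291 RPKM in SIB_AS and 166 and 175 in MUT_AS, and at 298 and 245 in SIB_PS and 243 and 379 in MUT_PS. pts, the next enzyme, was read at 106 and 118 RPKM in SIB_AS and 98.1 and 80.8 in MUT_AS, and at 84.8 and 103 in SIB_PS and 140 and 123 in MUT_PS. The AS groups did not overlap for either gene, with mutants lower. The PS groups overlapped for gch2, and for pts the mutants were higher.

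The interaction was −0.84 (SE 0.30) for gch2 and −0.82 (SE 0.24) for pts. sprb, a sepiapterin reductase gene of the same pathway, had −0.88, with 12.5 and 11.8 RPKM in SIB_AS, 6.13 and 5.31 in MUT_AS and 12.8 to 18.1 in PS. slc2a11b, of the sugar transporter family, had −0.92, with 20.5 and 23.6 RPKM in SIB_AS, 13.1 and 11.9 in MUT_AS and 18.5 to 25.8 in PS. Both had AS mutants below AS siblings and overlapping PS groups, and neither was in the list of pigment cell markers.

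Of 20 pigment cell markers in the table, 18 were tested, 0 were called and 17 had an interaction below 0, against 1 above. With median scaling all 18 were below 0. The median was −0.22 and lay between −0.36 without SIB_AS replicate 1 and −0.09 without SIB_AS replicate 3. tyr and dct, which encode enzymes of melanin synthesis, had −0.16 and −0.13. mlphb, the melanosome transport gene melanophilin, had −0.70. In sum the 20 markers took 0.196% and 0.221% of RPKM in SIB_AS, 0.155% and 0.186% in MUT_AS, 0.177% and 0.170% in SIB_PS and 0.179% and 0.215% in MUT_PS. In this sum, in which abundant markers weigh most, mutants were lower in AS and higher in PS, with no overlap. The mean log2(RPKM + 1) of the 20 overlapped in AS, at 4.090 and 4.328 in SIB_AS and 4.088 and 4.125 in MUT_AS. In PS it was 4.07 and 4.03 in siblings and 4.17 and 4.32 in mutants. Of the 18 tested, 8 were above 0 and 10 below in AS, and 17 above and 1 below in PS.

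Genes in a list of periderm and epidermis markers had positive interactions more often than negative ones. krt1-c5, a keratin gene, had the largest of the list, 1.67 (SE 0.30, adjusted p = 0.587). Its level was 1.65 and 2.18 RPKM in SIB_AS, 3.918 and 4.403 in MUT_AS, 2.15 and 3.11 in SIB_PS and 0.787 and 1.26 in MUT_PS. pvalb8, a parvalbumin, which buffers calcium, was read at 15.14 and 16.1 RPKM in SIB_AS and 30.2 and 30.4 in MUT_AS, and at 15.8 to 21.2 in the 4 PS libraries, with an interaction of 1.02 (SE 0.24). The AS groups of pvalb8 were far apart and its PS groups overlapped, and which cells expressed it was not tested. agr2, a disulfide isomerase of mucous cells, had 0.54.

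Of 32 periderm and epidermis markers tested 25 were above 0, with a median of 0.18, and 0 were called. Without SIB_AS replicate 1 the median was −0.01 and without MUT_PS replicate 1 it was 0.00, so the median of this list rests on single libraries. capn8, a calpain protease gene outside the list, had an interaction of 1.21, with 4.59 and 5.91 RPKM in SIB_AS, 17.7 and 10.2 in MUT_AS and 5.72 to 8.19 in PS.

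**Figure D4:**
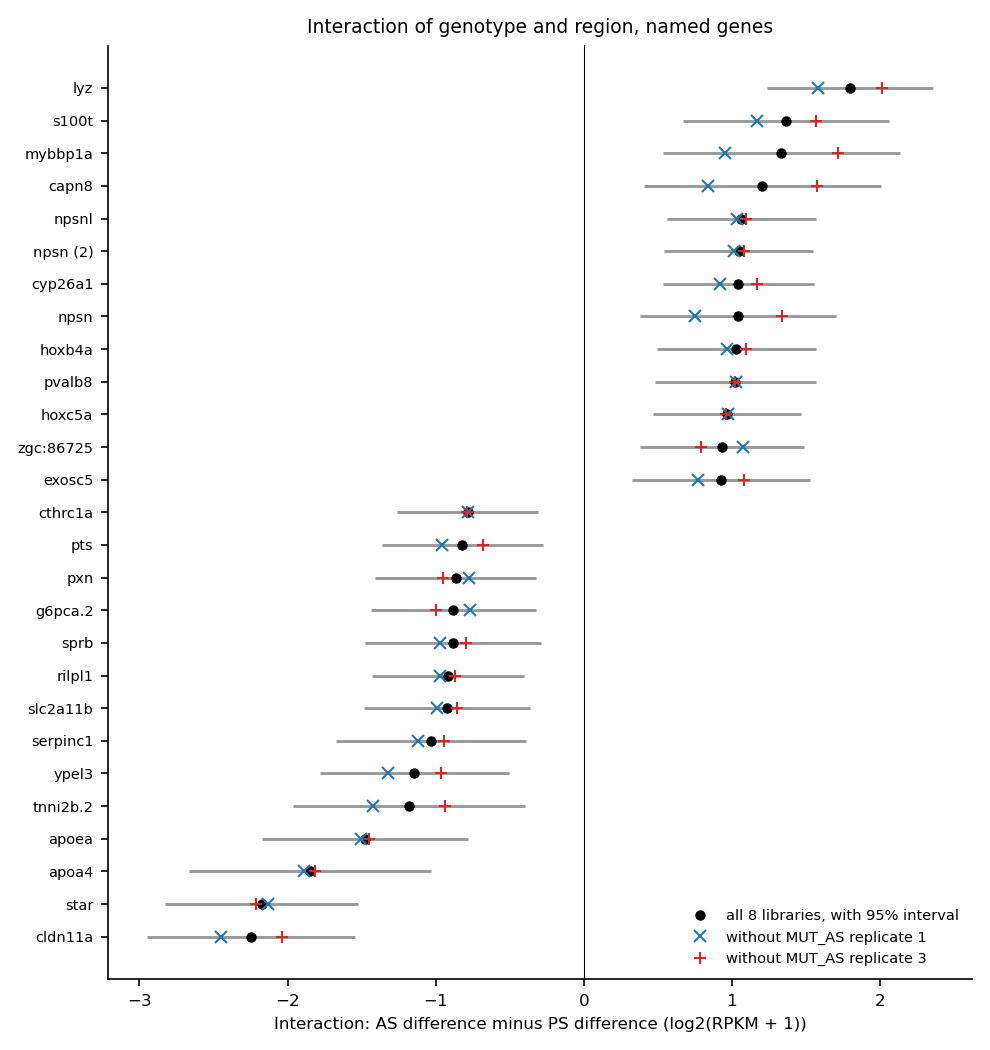
Interaction (horizontal axis, in log2(RPKM + 1) units) of the named genes with all 8 libraries (black points) and its 95% interval (grey lines), with the value without MUT_AS replicate 1 (blue crosses) and without MUT_AS replicate 3 (red plus signs). npsn appears with 2 transcripts, and every gene shown keeps its sign without either library.

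Axon guidance genes encode the cues and receptors that steer growing nerves. Of 111 genes in the table that the authors marked with this term, 96 were tested and 0 were called. 1 of the 96 had an unadjusted interaction p under 0.05, against 2.74% of all transcripts. Their median was 0.03 with a range of −0.58 to 0.58, and it turned to −0.00 with median scaling and −0.05 without MUT_AS replicate 1. At a median SE of 0.270, interactions of the size of this median were not detectable in single genes.

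Among repulsive and attractive cues, ntn1a, which encodes a netrin, had −0.58 and efna2, an ephrin, −0.54. efnb1, also an ephrin, had 0.57, with 14.5 and 14.1 RPKM in SIB_AS, 22.4 and 19.3 in MUT_AS and 8.04 to 8.81 in PS. The 16 ephrins and Eph receptors tested were split 8 to 8, with a median of −0.11 without MUT_AS replicate 1 and 0.11 without MUT_AS replicate 3. The 19 slits, netrins and receptors tested had a median of 0.04, or −0.04 without MUT_PS replicate 1 and 0.16 without MUT_AS replicate 3. Of the 22 semaphorins, neuropilins and plexins tested 15 were above 0, with a median of 0.20, between 0.10 and 0.25 whichever library was left out. sema4ba, a transmembrane semaphorin, had 0.72, with 1.57 and 1.91 RPKM in SIB_AS, 2.81 and 2.97 in MUT_AS, 1.81 and 2.05 in SIB_PS and 1.39 and 1.66 in MUT_PS. The 17 motor neuron markers tested had a median of −0.06, or 0.02 without MUT_AS replicate 3, with 7 above 0 and 10 below, and −0.42 for olig2, the regulator of motor neuron progenitors.

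Of 28 pectoral fin bud genes in the table, 24 were tested, 16 above 0 and 8 below, with a median of 0.10, or 0.01 without SIB_PS replicate 1. tbx5a, the regulator of pectoral fin identity, had 0.68, with 1.82 and 2.35 RPKM in SIB_AS and 3.23 and 3.55 in MUT_AS. In PS it was at 0.190 RPKM or less, so its interaction rests on AS. The actinodin gene and1, which encodes a fibre protein of the fin fold, had −0.61 and was low in AS, at 0.949 to 1.60 RPKM, against 21.8 and 28.1 in SIB_PS and 30.4 and 34.3 in MUT_PS.

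Erythroid genes had positive mutant minus sibling differences in both regions, above 0 for 21 of 22 tested genes in AS and 22 in PS, against 62.1% and 63.8% of all transcripts. The 24 in the table took 0.399% and 0.158% of RPKM in SIB_AS, 0.962% and 0.365% in MUT_AS, 0.301% and 0.243% in SIB_PS and 1.53% and 0.509% in MUT_PS. The AS groups overlapped, the PS groups did not, and replicate 1 was above replicate 3 in each group. Of 22 tested 18 had an interaction below 0, with a median of −0.37. This turned to 0.27 without MUT_PS replicate 1 and 0.04 without MUT_AS replicate 3, and was −1.15 without MUT_PS replicate 3, so no direction is given. cahz, the carbonic anhydrase of red cells, had 17.2 and 8.51 RPKM in SIB_AS, 35.1 and 18.8 in MUT_AS, 10.4 and 8.36 in SIB_PS and 61.6 and 23.8 in MUT_PS.

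Of 17 endothelial markers tested 15 had an interaction below 0, with or without median scaling, with a median of −0.30 and 0 called. It lay between −0.39 and −0.17, and 11 to 16 were below 0 whichever library was left out. kdrl, a receptor for vascular growth factor, was read at 5.85 and 6.47 RPKM in SIB_AS, 5.69 and 4.85 in MUT_AS, 3.04 and 3.66 in SIB_PS and 4.08 and 3.97 in MUT_PS, with an interaction of −0.41. cdh5, the cadherin of endothelial junctions, had −0.46.

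**Figure D5:**
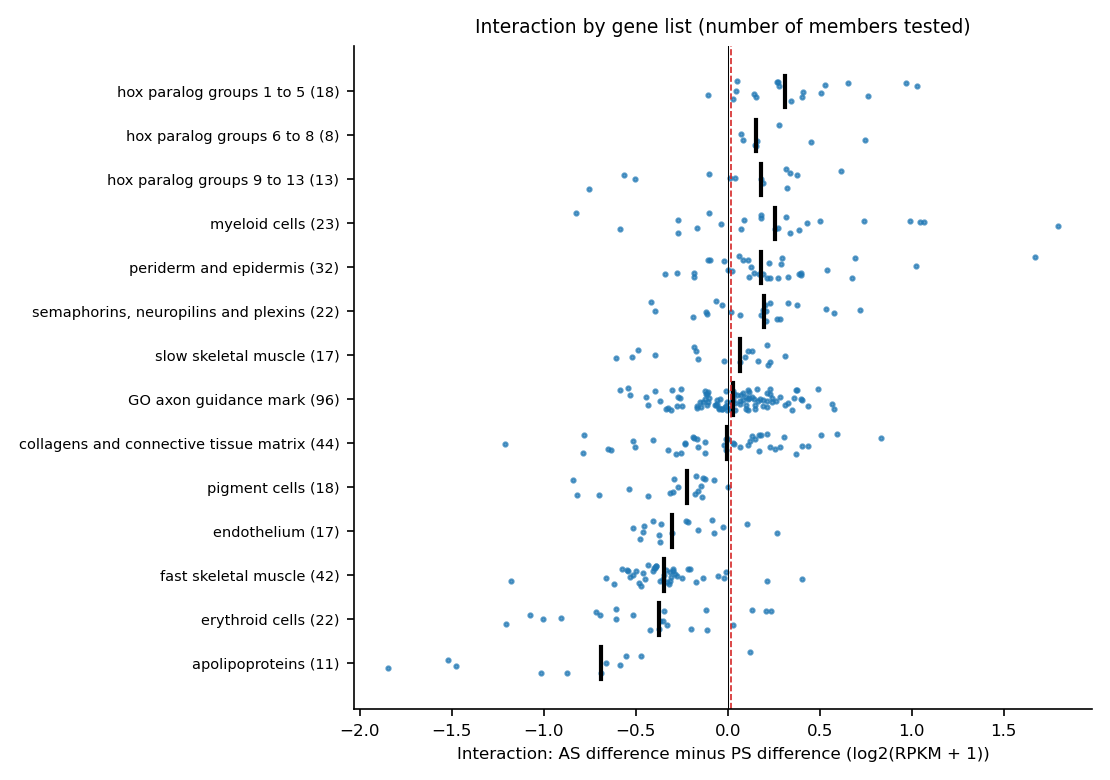
Interaction (horizontal axis, in log2(RPKM + 1) units) of every tested member (points) of 14 gene lists, with the median of each list (black bars), the number tested in parentheses and the median of all transcripts (red dashed line, 0.02). Points are spread vertically at random to be seen. Of the lists shown, apolipoproteins have the lowest median and hox paralog groups 1 to 5 the highest.

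Genes of the connective tissue matrix did not share a direction. Of 44 tested 22 were above 0 and 22 below, or 20 and 24 with median scaling, with a median of −0.00. There were 7 below 0 at an unadjusted p under 0.05, against 1.53% of all transcripts, and 0 above. cthrc1a, a secreted protein with a collagen-like stretch, was read at 29.7 and 26.5 RPKM in SIB_AS, 11.1 in both MUT_AS libraries, 18.4 and 19.8 in SIB_PS and 14.2 and 12.7 in MUT_PS. Mutants were below siblings in both regions. cthrc1a fell in AS by 1.27 (SE 0.15, limma adjusted p = 0.0213), with a PS difference of −0.48 and an interaction of −0.78 (SE 0.21). The AS call of cthrc1a was kept in 5 of 9 other settings with all libraries and in 2 of 8 with a library left out (adjusted p 0.00163 to 0.315).

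tnw, a tenascin, was read at 111 and 130 RPKM in SIB_AS and 89.97 and 82.5 in MUT_AS, and at 137 and 186 in SIB_PS and 194 and 202 in MUT_PS, with an interaction of −0.79. vcanb, the proteoglycan versican, had −0.63 and thbs3b, a thrombospondin, −0.65. twist3, a transcription factor gene of sclerotome and mesenchyme, had 0.75, with 6.204 and 4.623 RPKM in SIB_AS, 9.65 and 11.3 in MUT_AS and 2.304 to 2.928 in PS.

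The other genes with the smallest interaction p came from several functions. zgc:86725, now acte1, encodes an actin and rose in AS by a log2 difference of 1.38 (SE 0.18, limma adjusted p = 0.0296). This call was kept in 4 of 9 other settings with all libraries, was lost with no filter, median scaling, either weighting and the 4 AS libraries alone, and was kept in 2 of 8 fits with a library left out (adjusted p 0.000772 to 0.318). It was read at 15.0 and 16.3 RPKM in SIB_AS, 38.2 and 46.9 in MUT_AS, 27.4 and 28.2 in SIB_PS and 33.9 and 43.2 in MUT_PS, with an interaction of 0.93 (SE 0.25). Mutants were above siblings in both regions. mybbp1a, a nucleolar protein gene, occurs as 2 mapped copies, with interactions of 0.39 and 1.33. The second copy stood at 7.66 and 8.75 RPKM in SIB_AS, 22.2 and 12.7 in MUT_AS, 3.52 and 5.23 in SIB_PS and 3.31 and 2.86 in MUT_PS.

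exosc5, a subunit of the RNA exosome, had 0.93. rilpl1, a gene related to a Rab effector of lysosomes, also occurs as 2 mapped copies, with interactions of 0.05 and −0.92, so no direction is given for the gene. The second copy had 6.12 and 5.96 RPKM in SIB_AS, 3.13 and 2.85 in MUT_AS and 5.06 to 6.19 in PS. The AS groups were apart and the PS groups overlapped. ypel3, of the yippee-like family, had −1.14, with 6.88 and 5.67 RPKM in SIB_AS, 4.95 and 3.64 in MUT_AS, 4.59 and 3.25 in SIB_PS and 7.20 and 6.45 in MUT_PS, opposite in the 2 regions with no overlap. pxn, the focal adhesion adapter paxillin, whose second mapped copy was tested, had −0.87 and was also opposite, with 4.97 and 4.33 RPKM in SIB_AS, 2.47 and 2.92 in MUT_AS, 9.01 and 7.92 in SIB_PS and 11.2 and 9.34 in MUT_PS.

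In the remaining lists 0 members were called in the interaction. Those of housekeeping and general cell types moved with single libraries. The 84 cytosolic ribosomal protein genes had a median of 0.10, which turned to −0.12 without MUT_AS replicate 1 and was 0.29 without MUT_AS replicate 3. The 53 cell cycle genes had −0.03, or −0.27 and 0.20 without these libraries. The 26 pan-neuronal genes had −0.04, or −0.23 and 0.16. In all 3 lists the sign differed with the MUT_AS library left out.

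Among mesoderm and axis lists, 4 medians changed sign with the library left out. The median was −0.01 for 17 somite segmentation genes, between −0.06 without MUT_AS replicate 1 and 0.06 without MUT_PS replicate 3. It was −0.07 for 22 sclerotome and dermomyotome genes, between −0.14 without SIB_AS replicate 1 and 0.05 without SIB_AS replicate 3. The 15 notochord and hypochord genes had 0.08, between −0.12 without SIB_AS replicate 1 and 0.20 without MUT_PS replicate 3. The 22 pronephros genes had 0.07, between −0.06 and 0.19 without SIB_PS replicate 1 and 3.

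The 21 pharyngeal arch genes had 0.18, with 15 above 0 and a median between 0.05 without MUT_AS replicate 1 and 0.30 without SIB_PS replicate 3. The 20 spinal progenitor and glia genes had −0.17, with 14 below 0 and a median between −0.30 and −0.01 without SIB_PS replicate 1 and 3. The 16 chemokine and attractant genes had 0.11, or −0.0087 without SIB_PS replicate 1 and 0.23 without MUT_AS replicate 1.

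The 17 heart genes had −0.17, which turned to 0.18 without MUT_PS replicate 1. The 15 endocrine pancreas genes had −0.10, the 24 eye and brain genes −0.03 and the 13 inner ear and lateral line genes −0.15, and all 3 medians rose above 0 when 1 library was left out. The 37 heat shock and protein folding genes had 0.09 and the 39 circadian and immediate early genes 0.12, each below 0 without 1 of the MUT_PS libraries. The 26 genes of the p53 pathway and cell death had −0.00, between −0.10 and 0.10 without SIB_PS replicate 1 and 3.

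pmaip1, in the p53 list, encodes a small protein that promotes cell death and had the highest interaction of all 10889 transcripts, 1.86, with an SE of 0.77. It was read at 7.01 and 1.28 RPKM in SIB_AS, 8.88 and 17.9 in MUT_AS, 6.35 and 5.69 in SIB_PS and 5.02 and 5.32 in MUT_PS. The AS libraries were spread widely within each group, its unadjusted limma p was 0.0425, and it was singled out after its values were seen.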

How the data were processed

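Strand-specific mRNA-seq libraries of zebrafish trunk pieces were used, 2 in each of 4 groups. Per the design text, the authors aligned reads with RUM to Zv9 (danRer7) and assigned each read to 1 transcript, with a version not given in the sources used here. The deposited values are log2(RPKM + 1), as the authors' column headers state, and were used as deposited with the pseudocount of 1. The authors also deposited 4 columns called fold change, each a ratio of log2 values, which were not used. Of 14809 rows, 228 repeated 1 fill value per column and were dropped, which left 14581, of which 965 are further mapped copies of a transcript. Of the accessions, 94.0% were found in the reference table, which was used for symbols only.

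One mean per group was fitted with limma 3.58.1 in R 4.3.3 (eBayes with trend and robust, statmod 1.5.0) over the 10889 transcripts whose mean over the 8 libraries reached 1 RPKM. The contrasts were MUT minus SIB in AS, the same in PS, and their difference, with Benjamini-Hochberg adjustment over all 10889 and a threshold of 0.05. The code was tested on simulated data. Intervals are 95%. SE and intervals are on the log2(RPKM + 1) scale, which understates changes of low genes. Tables and figures used Python 3.11.15, numpy 2.4.6, pandas 2.3.3 and matplotlib 3.10.9. Since RPKM carries no counts, depth is known only relative between libraries, and no counting interval is given.

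Named genes were the called transcripts, the 12 positive and 12 negative interactions with the smallest p among transcripts of at least 5 RPKM, leaving out clone names such as zgc:194131 as symbols, and with no overlap of MUT and SIB libraries in at least 1 region, the 5 each way in each region under the same conditions, those too low to compare, foxc1a, foxc1b and tnni2b.1, and the 4 members of each gene list with the smallest p. Other genes named were chosen after their values were seen, and all lists and rules were chosen with earlier results of these data known. Libraries are said not to overlap where every MUT value lies on 1 side of every SIB value of a region. The alternatives were a pseudocount of 0.1, no filter or a mean of at least 5 RPKM, median scaling, weights, no trend, a replicate block, each region alone and leaving out each library.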

Additional observations from a re-analysis of the deposited data

Results flagged for a closer look

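In 10 of the genes named for the smallest interaction p, every mutant library lay on one side of every sibling library in AS and on the opposite side in PS. Choosing genes by a small interaction p favours this pattern, so their number is a description only. The difference between regions was tested as the interaction, and none passed the adjusted threshold in limma (adjusted p from 0.119 upward). It was above 0 for lyz (1.80), mybbp1a in its second mapped copy (1.33), cyp26a1 (1.04), hoxb4a (1.03) and hoxc5a (0.97). It was below 0 for apoea (−1.48), ypel3 (−1.14), g6pca.2 (−0.88), pxn in its second mapped copy (−0.87) and pts (−0.82). g6pca.2 was read at 3.59 and 4.44 RPKM in SIB_AS, 2.26 and 2.83 in MUT_AS, 6.63 and 6.06 in SIB_PS and 7.88 and 9.29 in MUT_PS. zgc:194131 (−1.52), outside that rule because its symbol is a clone name, showed the pattern too.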

How the results depend on the processing

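The interaction called 0 transcripts in the fit reported and in each of the other settings that kept all 8 libraries, and 0 to 199 when 1 library was left out (199 without MUT_AS replicate 1 and 11 without MUT_AS replicate 3). The AS count of 5 became 3 with no filter, with a mean of at least 5 RPKM and with a weight per library or per group, 0 with the 4 AS libraries alone, and 2 to 1105 when 1 library was left out (1105 without MUT_AS replicate 1 and 78 without MUT_AS replicate 3). The PS count of 0 became 2 with a mean of at least 5 RPKM, 17 with a weight per library or per group, 99 with the 4 PS libraries alone, and 0 to 15 when 1 library was left out. With a replicate block the interaction called 0, with 456 at an unadjusted p under 0.05 against 298, the smallest adjusted p was 0.219 and the AS count was 7. The labels do not say that the numbers pair samples, and deviations of same-numbered libraries correlated between −0.09 and 0.52 over the 6 pairs of groups. Of 1449 pairs of a named interaction and a setting, over 92 genes, 1411 kept direction and side of the threshold, 26 passed the threshold only with a library left out and 12 turned sign, and 85 genes kept their direction in every setting. The sign turned only when a library was left out. Over those settings the interaction of dnajb1b ranged from −0.061 to 0.36, the interaction of aqp1a.1 from −0.19 to 0.012, the interaction of foxc1a from −0.20 to 0.027, the interaction of foxc1b from −0.10 to 0.085, the interaction of tyr from −0.34 to 0.0086, the interaction of cyp17a1 from −0.064 to 0.37 and the interaction of mpeg1 from −0.31 to 0.11. The pseudocount sets the size where values are low in PS: with 0.1, the interaction of star was −2.74 and the interaction of cldn11a −4.18. With 2 libraries a group and a median SE of 0.270, interactions near that size could not be detected in single genes. The AS calls of star and tnni2b.2 were lost, among the settings that tested them, only with the 4 AS libraries alone (adjusted p = 0.0551 in limma).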
